A study of Rattus norvegicus with 16 samples.

Results

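The genes described here carry out cell division: entry into mitosis, chromosome condensation, the spindle, the kinetochore, anaphase and cytokinesis. They were taken by name, as a list of 50 genes, which was chosen with earlier results of these data known. Of the 50, 49 were found among the 32623 gene records of the deposited table. Ccnb2, the gene of cyclin B2, had no record under its name, and a record for a cyclin B2-like gene was not used in its place. Cenpa, the gene of the centromeric histone variant, was found but had 2 counts in 1 marrow control library and 0 counts in the 15 others, so it takes no part in any comparison.

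Transcripts were counted in livers and bone marrows taken from female Big Blue rats, all of them transgenic for a vector with the cII and lacI reporter genes used in mutation assays. The rats were 6 weeks old at arrival, were acclimated for 1 week, and were gavaged daily for 28 days with N-nitrosodiethylamine (NDEA) at 10 mg/kg/day or with a dose of 0. Both tissues were collected once 3 days had passed since the final dose. NDEA is a nitrosamine that liver enzymes turn into a DNA-alkylating agent. There were 4 groups of 4 libraries: liver control, liver NDEA, marrow control and marrow NDEA. The libraries count the 3' ends of polyadenylated transcripts, so a count does not scale with the length of a gene.

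A cell that commits to mitosis raises cyclin A2 and cyclin B1, which activate the kinase Cdk1. Condensin and topoisomerase II then compact the chromosomes, kinetochores bind them to spindle microtubules, and the spindle checkpoint holds back the anaphase-promoting complex until every chromosome is attached. Most of these genes are transcribed late in the cycle, in G2 and M, and are nearly silent in resting cells. Most hepatocytes of an adult liver are resting and can re-enter the cycle after injury or loss of tissue. Bone marrow divides throughout life to make blood cells. In bulk RNA, fewer cells that express a gene and less of its RNA per cell cannot be told apart.

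Liver libraries held 5000844 to 6863592 counts and marrow libraries 2162182 to 5705705, with marrow control 1 the shallowest. The albumin gene Alb was counted at 67796 CPM (counts scaled to a common library size) of all counts or more in liver and at 0.439 or less in marrow, and Mpo, a granule enzyme of myeloid cells, at 395 to 606 in marrow and 0 in liver. Marrow NDEA 3 and 4 detected 10144 and 9101 genes, below the 10920 or more of every other marrow library. The share of counts from mitochondrial genes was 16.2, 20.6, 17.4 and 17.9% in liver controls 1 to 4 and 20.9, 21.2, 20.1 and 22.4% in liver NDEA 1 to 4, so 3 of 4 controls were below all NDEA livers. The 16 libraries came from rats that the labels do not tie to cages or across tissues. P-values measure the spread between the 4 libraries of a group.

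In liver, the 49 genes together were several times more abundant after NDEA, and in marrow they were not. Their summed level was 147, 249, 174 and 102 CPM in liver controls 1 to 4 and 705, 1076, 807 and 973 CPM in liver NDEA 1 to 4. The group means were 168 ± 61.5 and 890 ± 166 CPM (SD, n = 4 each), a ratio of 5.29. Every NDEA liver was above every control liver, and the controls themselves ranged from the lowest in control 4 to the highest in control 2. In marrow the sum was 5808, 4915, 5503 and 5673 CPM in controls 1 to 4 and 5378, 5566, 5704 and 5515 CPM in NDEA 1 to 4, a ratio of 1.01, and the groups overlapped. These CPM values are set on a scale of each tissue's own tested genes. On 1 scale for all 16 libraries, NDEA liver stood at 19.0% of control marrow and control liver at 3.61%.

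**Figure D1:**
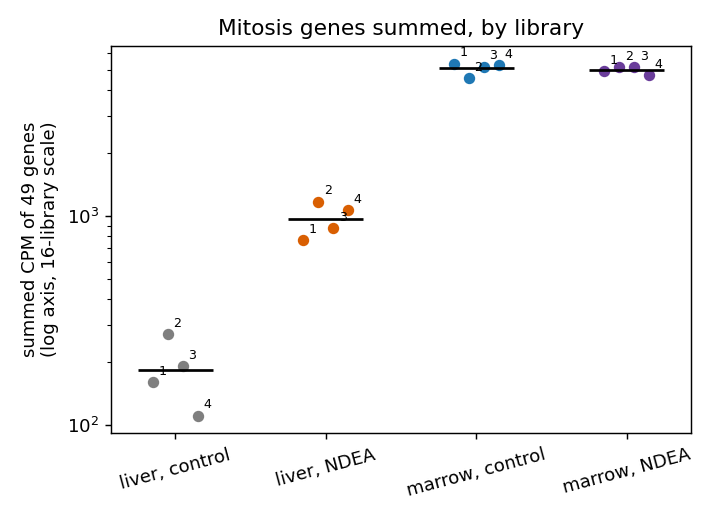
Summed CPM of the 49 genes found (log axis, on 1 scale for 16 libraries) in each library, numbered by replicate, with a bar at the mean of each group of 4. All 4 NDEA livers lie above all 4 control livers and below all marrow libraries, while marrow control and marrow NDEA overlap.

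Single genes were tested with limma's voom method in each tissue, over all genes that passed a filter on low counts, and called at a Benjamini-Hochberg adjusted p under 0.05. In liver, 40 of the 49 genes passed the filter, and all 40 estimates were higher with NDEA. Of these 40, 23 rose and 0 fell (57.5%), against 2.87% of all 9668 tested liver genes called higher and 3.74% called lower. The median log2 fold change was 3.53, against 0.01 over all tested genes, and the called genes ran from 1.55 to 5.58. Without liver control 4 the median was 2.90. In 29 of the 40 the NDEA libraries all lay above the controls, which held for 6.54% of all tested genes against 5.98% with NDEA all below, and the 23 called genes were among them. At an unadjusted p under 0.05, 34 of the 40 were higher and 0 lower, against 9.27% and 9.47% of all tested genes. A gene near 0 in control liver passes the filter only if it is high with NDEA, which applies to much of this list, so these counts describe the genes measurable in liver and not all 49. The 9 genes that failed the filter were Ncapd2, Mastl, Melk, Bub1b, Cenpa, Cdca3, Kif23, Anln and Racgap1.

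Promoters are shown first, since many of the genes rose together in liver. Late cell cycle promoters are known for CCAAT boxes, bound by the factor NF-Y, and for the cell cycle homology region, TTTGAA, bound by the DREAM and MuvB complexes that silence these genes in resting cells and activate them in G2 and M. The 200 bases before the annotated start are given 5' to 3' on the strand of the gene, from RefSeq on assembly GRCr8. Capitals mark CCAAT or its reverse complement ATTGG, and TTTGAA or its reverse complement TTCAAA. Smc4 (chr2:155550062-155550261, plus strand), Top2a (chr10:84473094-84473293, minus strand) and Smc2 (chr5:71602205-71602404, plus strand) are the called genes with the highest NDEA level among those with a single entry. Cenpe (chr2:226310857-226311056, plus strand) and Ube2s (chr1:78057459-78057658, plus strand) are the tested genes not called with the highest NDEA level. Cdc20 (chr5:137255800-137255999, minus strand) and Cdk1 (chr20:19265093-19265292, plus strand) were added after their values were seen, as genes that hold both motifs.
Smc4: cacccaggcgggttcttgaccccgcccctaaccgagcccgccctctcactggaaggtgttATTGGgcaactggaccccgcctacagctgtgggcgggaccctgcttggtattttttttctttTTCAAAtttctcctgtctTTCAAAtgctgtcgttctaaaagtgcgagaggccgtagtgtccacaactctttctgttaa
Top2a: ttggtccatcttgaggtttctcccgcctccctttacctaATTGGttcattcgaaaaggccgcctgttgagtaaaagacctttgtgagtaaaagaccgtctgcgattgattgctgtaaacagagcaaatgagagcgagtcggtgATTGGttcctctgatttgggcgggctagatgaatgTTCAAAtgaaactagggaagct
Smc2: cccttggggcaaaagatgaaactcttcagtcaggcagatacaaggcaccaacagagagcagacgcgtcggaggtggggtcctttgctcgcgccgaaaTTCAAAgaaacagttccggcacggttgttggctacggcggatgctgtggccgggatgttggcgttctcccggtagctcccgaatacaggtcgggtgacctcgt
Cenpe: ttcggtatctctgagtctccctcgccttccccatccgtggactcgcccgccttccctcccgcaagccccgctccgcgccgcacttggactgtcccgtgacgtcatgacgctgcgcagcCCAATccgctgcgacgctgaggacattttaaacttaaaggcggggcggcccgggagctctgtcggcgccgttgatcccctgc
Ube2s: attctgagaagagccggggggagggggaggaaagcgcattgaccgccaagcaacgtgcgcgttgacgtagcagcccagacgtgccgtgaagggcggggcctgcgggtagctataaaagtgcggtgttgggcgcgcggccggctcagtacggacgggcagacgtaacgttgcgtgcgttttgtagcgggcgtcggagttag
Cdc20: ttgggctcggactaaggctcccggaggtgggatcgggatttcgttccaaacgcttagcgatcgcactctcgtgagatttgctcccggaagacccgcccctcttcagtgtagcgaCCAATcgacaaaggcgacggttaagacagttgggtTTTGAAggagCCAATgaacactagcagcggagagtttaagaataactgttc
Cdk1: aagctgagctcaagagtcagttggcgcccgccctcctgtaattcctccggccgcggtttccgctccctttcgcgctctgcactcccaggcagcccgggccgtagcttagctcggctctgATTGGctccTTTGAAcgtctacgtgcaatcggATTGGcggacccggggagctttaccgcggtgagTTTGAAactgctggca
Cdk1 holds 2 ATTGG and 2 TTTGAA in the stretch shown, Top2a holds 2 ATTGG and 1 TTCAAA, and Ube2s holds none of these letters.

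Motifs were counted on both strands in the 250 bases before the start. A single promoter entry was matched for 41 of the 49 genes. For Ccna2, Aurkb, Kif2c, Tpx2, Ube2c, Cdkn3, Racgap1 and Incenp there was no single entry, and they were left out. CCAAT stood in 30 of 41 (73.2%), against 34.4% of all 24206 promoters of the table, and at least 2 copies stood in 20 of 41 (48.8%), against 9.97%. TTTGAA stood in 20 of 41 (48.8%), against 16.1%, and both motifs together in 19 (46.3%), against 5.82%. TATAAA, searched the same way, stood in 2 of 41 (4.88%), against 13.3%. Among the 19 matched genes called in liver, 12 (63.2%) held TTTGAA. Among the 22 others, which were either not called or not tested in liver, 8 (36.4%) did. CCAAT and TTTGAA can share an end base where they adjoin, and such a match was counted for both. The shares carry no test, and a match of these letters is a description, not a site or a cause.

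Among the genes of chromosome structure, 5 of 6 tested rose in liver, with a median log2 fold change of 3.73. Mki67, the Ki-67 protein that coats mitotic chromosomes and marks cycling cells (ENSRNOG00000028137, chromosome 1, position 207993895 on the unnamed build of the table), stood at 2.65, 4.38, 4.33 and 4.79 CPM in controls 1 to 4. In NDEA 1 to 4 it stood at 29.3, 41.8, 28.4 and 46.6 CPM. The groups were far apart and the controls close together (log2 fold change 3.16, SE 0.53, limma adjusted p = 3.56e-04). Top2a, the topoisomerase that untangles sister chromatids (ENSRNOG00000053047, chromosome 10, position 86901007), was at 2.97, 17.5, 9.20 and 0.184 CPM in controls and at 54.1, 85.5, 50.8 and 97.9 CPM with NDEA. Its rise was 19.5-fold (log2 SE 0.81, limma adjusted p = 0.00127), with a wide spread among the controls and none reaching the lowest NDEA library. Its log2 fold change of 4.29 became 3.18 without control 4, which held 0.184 CPM, and 5.06 without control 2. Smc2 and Smc4 form the ATPase core shared by both condensin complexes. Smc4 was at 40.3, 38.5, 36.2 and 32.8 CPM in controls and at 112, 123, 98.3 and 104 CPM with NDEA, a 2.93-fold rise (log2 SE 0.18) with the lowest adjusted p of the list (limma, 2.84e-06). Smc2 was at 15.1, 20.3, 15.9 and 13.3 CPM in controls and at 39.1, 46.7, 46.4 and 65.1 CPM with NDEA (3.03-fold, limma adjusted p = 4.51e-04). Both were well above 0 in every control liver, and their folds were the smallest among the called genes.

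The regulatory subunits of condensin I were near 0 in control liver. Ncaph had 1 count over the 4 controls and 6.57, 2.28, 4.78 and 1.80 CPM in NDEA 1 to 4 (limma adjusted p = 0.0439). The ratio of its counts was 91.1, with a 95% interval of 16.0 to 3634 that covers counting error only, as do all such intervals here. Folds given against a floor cover counting error in the controls alone, not in the NDEA libraries. Ncapg was at 0, 2.45, 0 and 0 CPM in controls and at 13.8, 11.8, 2.39 and 6.75 CPM with NDEA. It was not called (limma adjusted p = 0.0795), and control 2 lay above NDEA 3. Ncapd2 had 3 counts over the controls and 43 over the NDEA libraries, a ratio of 12.9 (95% interval 4.14 to 65.2), and failed the filter.

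Among the genes of mitotic entry, 5 of 6 tested rose, with a median log2 fold change of 3.89. Cdk1, the kinase that drives mitosis (ENSRNOG00000000632, chromosome 20, position 20576377), was at 2.65, 4.03, 3.07 and 0 CPM in controls 1 to 4 and at 20.3, 47.3, 18.1 and 28.0 CPM in NDEA 1 to 4. The rise was 18.2-fold (log2 SE 1.12, limma adjusted p = 0.0228), and no control came near an NDEA library. Without control 4, at 0 counts, its log2 fold change of 4.19 became 2.98. Ccnb1, its cyclin B1 partner (ENSRNOG00000058539), was at 2.97, 3.85, 0.541 and 0 CPM in controls and at 10.1, 23.0, 16.7 and 26.7 CPM with NDEA (18.4-fold, limma adjusted p = 0.0441). Its log2 fold change of 4.20 became 3.14 without control 4, 4.83 without control 1 and 4.91 without control 2. Ccna2, cyclin A2, had counts in control 2 alone among the controls, at 1.05 CPM, and 3.97, 5.32, 8.02 and 6.60 CPM with NDEA (limma adjusted p = 0.0289). Its fitted log2 fold change of 5.17 became 6.10 without control 2. Plk1, the polo-like kinase of mitotic entry and spindle assembly (ENSRNOG00000018815), was at 1.56, 3.85, 3.79 and 0 CPM in controls. Its 4 NDEA libraries lay close together, at 14.1, 15.4, 14.2 and 17.7 CPM (12.1-fold, log2 SE 1.01, limma adjusted p = 0.0313). Without control 4, at 0 counts, its log2 fold change of 3.59 became 2.44. Cdkn3, a phosphatase that acts on Cdk1 and Cdk2, was at 6.09, 7.35, 1.62 and 1.84 CPM in controls and at 12.7, 26.2, 27.0 and 16.8 CPM with NDEA (5.39-fold, limma adjusted p = 0.0188).

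Aurka, the spindle pole kinase, was the exception among these, at 3.12, 0, 3.79 and 2.03 CPM in controls and at 6.73, 21.3, 0 and 7.19 CPM with NDEA. NDEA 3 had 0 counts and the groups overlapped (log2 fold change 0.93, SE 1.75, limma adjusted p = 0.828). Mastl, the Greatwall kinase that shields Cdk1 substrates from a phosphatase, had 0 counts in all 4 control livers and 5.35, 0.949, 2.67 and 4.50 CPM with NDEA. Against a floor of 3 counts over the 4 controls it was at least 25.9-fold higher. Melk, a kinase of cycling and progenitor cells, also had 0 counts in controls and stood at 0.306, 11.2, 5.77 and 9.89 CPM with NDEA, at least 52.3-fold higher by the same floor. Both failed the filter, so neither was tested in liver.

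The chromosomal passenger complex pairs Aurora B kinase with survivin, borealin and the scaffold Incenp, and corrects faulty attachments at the centromere. Of its 4 genes 2 rose. Birc5, survivin, was at 4.06, 9.98, 14.8 and 0.369 CPM in controls 1 to 4 and at 18.3, 25.8, 35.3 and 29.8 CPM in NDEA 1 to 4 (6.38-fold, log2 SE 0.67, limma adjusted p = 0.0146). Its log2 fold change of 2.67 became 1.71 without control 4 and 3.26 without control 3. Cdca8, borealin, was at 3.12, 10.3, 2.16 and 2.03 CPM in controls and at 11.5, 20.3, 14.8 and 17.2 CPM with NDEA (4.32-fold, limma adjusted p = 0.0315). For Cdca8 control 2 came close to the lowest NDEA library. Aurkb, the kinase itself (ENSRNOG00000005659), was at 0, 0.350, 0.541 and 0.553 CPM in controls and at 9.02, 9.30, 3.94 and 7.64 CPM with NDEA. Its groups did not overlap, but it was not called (log2 fold change 4.34, SE 1.45, limma adjusted p = 0.0791). Incenp was at 0.781, 2.98, 11.0 and 6.27 CPM in controls and at 7.64, 12.9, 5.06 and 11.8 CPM with NDEA, with overlap (log2 fold change 1.32, limma adjusted p = 0.311).

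Checkpoint and kinetochore genes had the highest median log2 fold change of the role groups with more than 1 tested gene, 4.05, and the lowest share of calls among those, 1 of 8. Cenpf, a large protein of the outer kinetochore, rose. It was at 2.81, 13.0, 0 and 0 CPM in controls 1 to 4 and at 20.2, 40.4, 53.0 and 48.9 CPM in NDEA 1 to 4 (47.9-fold fitted, log2 SE 1.56, limma adjusted p = 0.0312). With 0 counts in controls 3 and 4, its log2 fold change of 5.58 ranged from 4.57 without control 3 to 7.06 without control 2, and was 6.33 and 4.59 without controls 1 and 4. Bub1, a checkpoint kinase of the kinetochore (ENSRNOG00000032778), was at 0.625, 0.875, 2.34 and 1.84 CPM in controls and at 5.35, 9.11, 12.7 and 6.75 CPM with NDEA, without overlap. It was not called (6.26-fold, log2 SE 0.94, limma adjusted p = 0.104). Cenpe, the kinetochore motor that moves chromosomes to the spindle equator, was at 2.97, 5.78, 0 and 0 CPM in controls and at 9.02, 31.3, 14.8 and 25.5 CPM with NDEA (limma adjusted p = 0.0795).

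Ndc80, Nuf2 and Spc25 are subunits of the complex that grips the microtubule. Their log2 fold changes were 5.02 (SE 1.68), 3.49 (SE 1.40) and 4.60 (SE 1.50), with limma adjusted p = 0.0803, 0.165 and 0.0710. Ndc80 stood at 5.81, 20.9, 3.80 and 12.6 CPM in NDEA 1 to 4 and at 1.09 CPM or less in every control, and Spc25 at 6.15 to 13.5 CPM against 0 to 2.28 CPM. For both genes every NDEA library lay above every control, and neither was called. Nuf2 overlapped through control 2, at 6.13 CPM. Mad2l1, the checkpoint protein that restrains Cdc20, was at 0 to 3.43 CPM in controls and at 1.35 to 5.13 CPM with NDEA (limma adjusted p = 0.261). Ttk, the Mps1 kinase that starts checkpoint signalling, was at 2.81, 1.75, 0.361 and 0.369 CPM in controls and at 1.53, 15.4, 0 and 2.40 CPM with NDEA. NDEA 2 alone stood above the controls, and the log2 fold change of 0.17 (SE 1.55, limma adjusted p = 0.970) was the smallest of the 40. Bub1b, the BubR1 subunit of the checkpoint complex, had 0 counts in controls and 0.611 to 3.80 CPM with NDEA, at least 14.0-fold higher against the floor.

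In anaphase, the activator Cdc20 and the ubiquitin-conjugating enzyme Ube2c switch on the anaphase-promoting complex, which destroys securin and the mitotic cyclins. Of 4 tested genes 3 rose. Cdc20 (ENSRNOG00000028415, chromosome 5, position 137260739) was at 5.93, 3.50, 3.25 and 1.29 CPM in controls 1 to 4 and at 32.2, 41.8, 36.0 and 52.9 CPM in NDEA 1 to 4 (log2 fold change 3.61, SE 0.61, limma adjusted p = 4.25e-04). Ube2c (ENSRNOG00000015131) was at 4.53, 16.1, 12.1 and 0.922 CPM in controls and at 39.6, 60.2, 35.6 and 44.4 CPM with NDEA (log2 SE 0.55, limma adjusted p = 1.00e-03). Its log2 fold change of 2.96 became 2.21 without control 4. For both genes the lowest NDEA library lay well above the highest control. Pttg1, securin, was at 5.15, 13.3, 1.08 and 0.369 CPM in controls and at 23.1, 26.6, 37.1 and 40.6 CPM with NDEA (12.0-fold, limma adjusted p = 0.00557). Its log2 fold change of 3.59 became 2.82 without control 4 and 4.37 without control 2. Ube2s, the enzyme that extends the ubiquitin chains begun by Ube2c, was not called. It was at 15.0, 8.05, 3.43 and 25.1 CPM in controls and at 17.3, 12.9, 21.9 and 9.89 CPM with NDEA (log2 fold change 0.55, SE 0.46, limma adjusted p = 0.566), with the highest level of all in control 4. Cdca3, a cofactor in degrading the Wee1 kinase, had 0 counts in controls and 0 to 1.71 CPM with NDEA. It was at least 6.18-fold higher against the floor, on 19 counts over the NDEA livers.

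Of the 11 spindle motors and microtubule binders 7 rose, with a median log2 fold change of 3.57. Nusap1, which bundles microtubules around chromosomes, was at 4.06, 10.9, 4.87 and 0.369 CPM in controls 1 to 4 and at 32.4, 61.7, 30.7 and 45.3 CPM in NDEA 1 to 4 (12.1-fold, limma adjusted p = 0.00248). Prc1, which crosslinks the central spindle, was at 4.53, 8.23, 5.59 and 0.369 CPM in controls and at 22.8, 45.2, 26.4 and 28.9 CPM with NDEA (8.91-fold, limma adjusted p = 0.00553). Tpx2, the activator of Aurora A on the spindle, was at 4.06, 5.95, 10.3 and 0 CPM in controls and at 24.6, 32.7, 16.6 and 35.4 CPM with NDEA (11.1-fold, limma adjusted p = 0.0262). The groups of these 3 genes did not overlap. Without control 4 their log2 fold changes of 3.60, 3.16 and 3.47 became 2.74, 2.30 and 2.06, and that of Tpx2 was 4.17 without control 3. Kif20a, a kinesin of the central spindle, was at 0.937, 8.40, 2.34 and 0 CPM in controls and at 13.9, 19.6, 16.9 and 12.9 CPM with NDEA (12.9-fold, limma adjusted p = 0.0349). Ckap2, a spindle microtubule protein, was at 0.781, 2.98, 6.67 and 0 CPM in controls and at 20.6, 22.6, 32.8 and 17.7 CPM with NDEA (20.2-fold, limma adjusted p = 0.0157). Aspm, which focuses spindle poles, was at 0.156, 5.25, 1.80 and 0 CPM in controls. Its NDEA libraries were nearly level, at 11.5, 12.7, 12.8 and 14.2 CPM (19.0-fold fitted, log2 SE 1.24, limma adjusted p = 0.0401). Without control 4 the log2 fold changes of Kif20a, Ckap2 and Aspm, 3.69, 4.33 and 4.25, became 2.56, 3.24 and 3.38. They were 4.63 for Kif20a and 5.22 for Aspm without control 2, and 5.16 for Ckap2 without control 3.

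Ckap2l, a relative of Ckap2 on the spindle, was the single called gene with 0 counts in all 4 controls. It stood at 6.42, 10.1, 2.81 and 1.65 CPM with NDEA, at least 40.3-fold higher against the floor (limma adjusted p = 0.0293). With Ckap2l at that bound the median log2 fold change of the 40 tested genes was still 3.53. Kif11, the motor that separates the spindle poles, had an estimate of 3.57 (SE 1.53, limma adjusted p = 0.198). Kif4a, a chromosome-bound kinesin, had 2.75 (SE 1.32, limma adjusted p = 0.263), and Kif2c, a microtubule depolymerase, 2.55 (SE 1.76, limma adjusted p = 0.474). Hmmr, a spindle and hyaluronan-binding protein, was at 4.06 CPM in control 1 and at 0.361 CPM or less in the other controls, and at 2.39 to 10.2 CPM with NDEA (log2 fold change 2.95, SE 1.48, limma adjusted p = 0.288). In all 4 genes at least 1 control overlapped the NDEA libraries.

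Cytokinesis was the role group least measurable in liver, with 1 of 4 genes tested and 0 called. Ect2, the activator of the contractile ring GTPase RhoA, was at 0.156, 2.28, 1.80 and 3.50 CPM in controls 1 to 4 and at 7.79, 9.11, 13.5 and 13.9 CPM in NDEA 1 to 4. The groups did not overlap, and the adjusted p missed the threshold (8.42-fold, log2 SE 0.95, limma adjusted p = 0.0542). Kif23, a motor of the central spindle, was at 0 to 1.09 CPM in controls and at 1.07, 6.08, 7.03 and 2.55 CPM with NDEA. Anln, a scaffold of the contractile ring, and Racgap1, the partner of Kif23, had 0 counts in controls. With NDEA, Anln reached 2.40 CPM and Racgap1 2.28 CPM at most. They were at least 10.4-fold and 6.11-fold higher against the floor, on 35 and 18 counts over the NDEA livers. Anln had 0 counts in NDEA 1, and Racgap1 had 0 counts in NDEA 1 and 3.

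**Figure D2:**
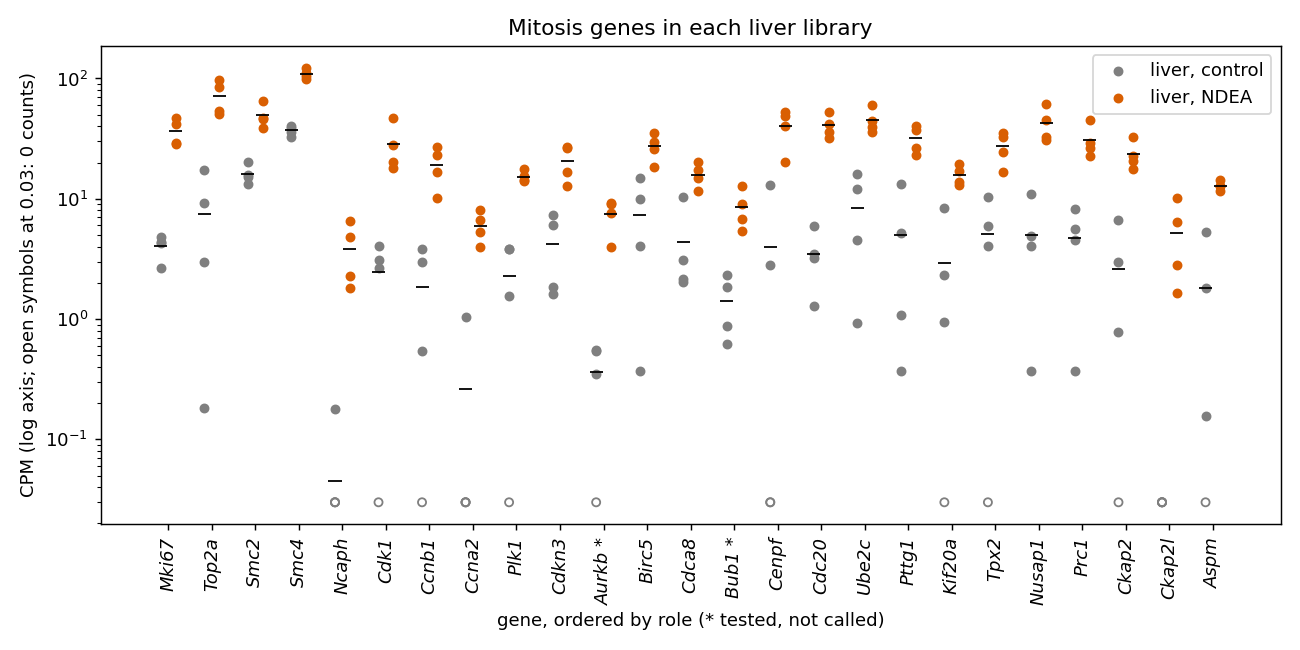
CPM (log axis) of the 23 genes called in liver and of Aurkb and Bub1 (marked with an asterisk, tested and not called) in each of 4 control and 4 NDEA livers, ordered by role, with a bar at each mean above 0. No control point of these 25 genes reaches the lowest NDEA point of its gene, and control points spread far more widely than NDEA points for genes such as Top2a and Aspm.

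The control livers differed from one another in many of these genes. Of the 49 genes, 27 had 0 counts in control 4, against 18 in control 1, 11 in control 2 and 16 in control 3. Control 2 held the highest of the 4 control values for 22 genes, control 3 for 9, control 1 for 6 and control 4 for 4. In the NDEA livers 1 to 5 of the 49 genes had 0 counts. The counts of all 49 genes together were 944, 1423, 966 and 555 in controls 1 to 4 and 4610, 5668, 5741 and 6491 in NDEA 1 to 4, so the control values of most genes rest on few counts.

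Many calls and folds moved with single libraries. When each liver library was left out in turn, the number of called genes fell from 23 to between 9 and 19. It was 9, 14, 10 and 14 without control 1, 2, 3 or 4, and 19, 14, 19 and 16 without NDEA 1, 2, 3 or 4. The fits without a control tested 39 or 40 of the genes, and those without an NDEA library 33 or 34. The latter tested 20 of the 23 called genes, since Ccna2, Ckap2l and Ncaph failed the filter there. The share of all tested genes called higher in these fits was 1.83 to 2.54%. Mki67, Top2a, Smc2, Smc4, Cdc20, Ube2c, Pttg1, Nusap1 and Prc1 kept the call in all 8 fits. Aspm lost the call in all 8 fits, and Ckap2l and Ncaph in each of the 4 that tested them. Without control 4, the control with the most genes at 0 counts, the folds of 14 of the 23 called genes moved by over 1.5 times, each downward. With the share of mitochondrial counts as a covariate, 2 of 40 genes were called, Smc4 (log2 fold change 1.52, limma adjusted p = 0.00529) and Ckap2 (4.99, limma adjusted p = 0.0444). In that fit 0.548% of all tested genes were called higher, 36 of the 40 estimates were higher, and their median was 2.50. The share is higher in NDEA livers, and its part in the result was not tested beyond this fit.

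**Figure D3:**
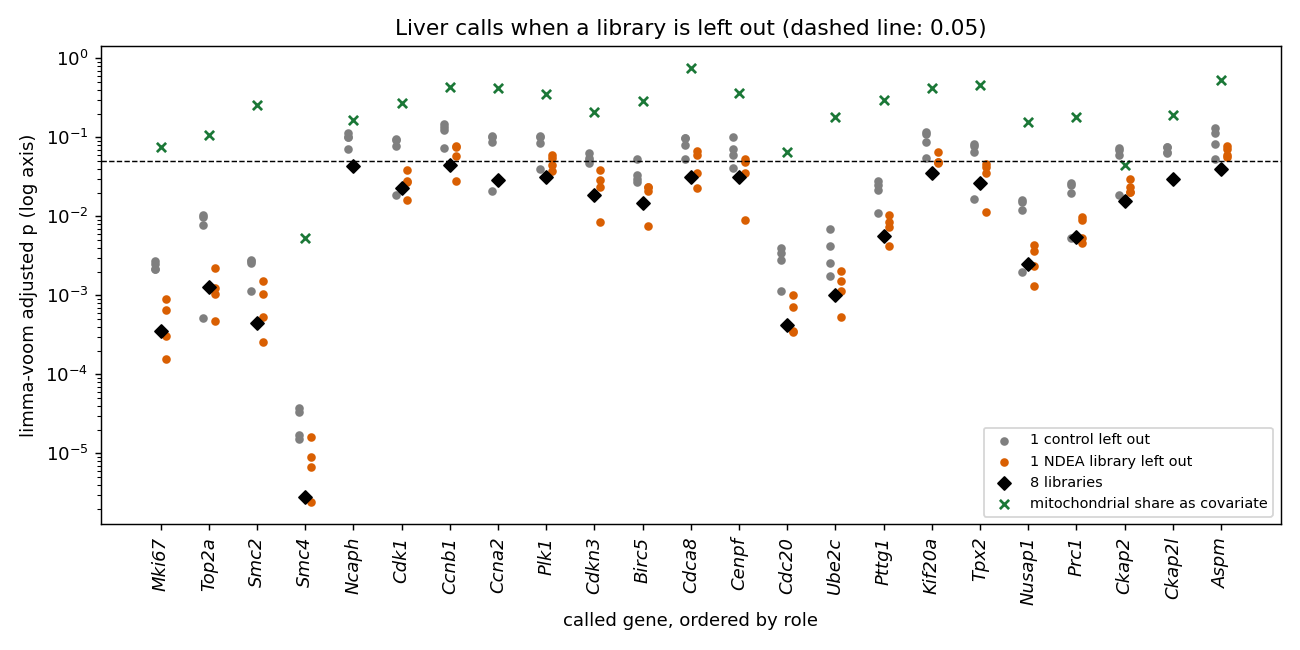
Limma-voom adjusted p (log axis) of each gene called in liver with all 8 libraries (diamonds), with 1 control or 1 NDEA library left out (dots) and with mitochondrial share added as covariate (crosses), with a dashed line at 0.05. For 9 genes all dots lie below the line, and the crosses of Smc4 and Ckap2 alone lie below it.

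Marker lists of other cells were read beside these genes. The 7 general leukocyte markers summed to 75.4 to 107 CPM in control liver and 119 to 132 CPM in NDEA liver, without overlap, and 1 of 6 tested rose, Ptprc, the gene of CD45 (2.06-fold, limma adjusted p = 0.0326). Its mean went from 20.2 to 38.0 CPM, the largest change among the 7. Means of Coro1a (5.79 to 12.0 CPM), Rac2 (22.1 to 30.3 CPM) and Cd37 (1.31 to 1.82 CPM) were higher and not called. Laptm5 (30.6 to 34.2 CPM) and Cd53 (9.31 to 10.6 CPM) were near level, and Cd52 was lower (1.11 to 0 CPM). The 8 stellate cell and myofibroblast markers summed to 228 to 332 CPM in controls and 411 to 492 CPM with NDEA. Of 7 tested 2 rose, the matrix genes Dcn (2.23-fold) and Col3a1 (1.72-fold, limma adjusted p = 0.0352 and 9.68e-04). Col3a1 made up most of these sums, with means of 177 CPM in controls and 299 CPM with NDEA. Means of Col1a1 (25.9 to 43.7 CPM) and Acta2 (5.01 to 9.26 CPM) were higher and not called. Lrat (24.7 to 27.5 CPM) and Rgs5 (2.26 to 2.72 CPM) were near level. Means of Reln (22.2 to 19.6 CPM) and Des (1.38 to 1.27 CPM) were slightly lower. The defining markers of granulocyte precursors, Mpo, Elane, Prtn3, Ctsg and Ms4a3, had 0 counts in all 8 livers, 5 of 5. B cell markers summed to 0.350 CPM or less in controls and 5.77 CPM or less with NDEA, with Pax5 and Vpreb1 at 0. Pax5 was at 0 in every marrow library too, so its 0 in liver says little. Erythroid markers summed to 1584 to 3331 CPM in controls and 1138 to 3904 CPM with NDEA, and 0 of 5 tested were called. T and NK cell markers summed to 9.46 to 25.2 CPM in controls and 17.7 to 26.2 CPM with NDEA, with 0 of 4 tested called in liver. Cd4 of that list was at 0. It was near 0 in marrow too (mean 0.483 CPM in controls and 0 with NDEA), so its 0 in liver says little. Within that list Cd3e and Cd3d, chains of the T cell receptor complex, had 0 counts in controls and stood at 0.760 to 3.75 and 0.306 to 4.08 CPM with NDEA. Both failed the liver filter and were called for the tissue difference (limma adjusted p = 0.0155 and 0.0354). With 0 counts in control liver, the size of that fitted difference depends on the prior count. It also takes in lower marrow estimates (log2 fold change -2.37 for Cd3e and -1.96 for Cd3d), neither of them called. Cd2, an adhesion receptor of T and NK cells, was at 0 to 1.93 CPM in controls and 2.75 to 6.30 CPM with NDEA (limma adjusted p = 0.290). Cd3g, another chain of the T cell receptor complex, had means of 0.273 CPM in controls and 0.227 CPM with NDEA. Means were also lower with NDEA for Cd5 (0.973 to 0.153 CPM), Cd8a (1.09 to 0.412 CPM) and Gzma (5.73 to 2.73 CPM). They were higher for Nkg7 (3.84 to 5.87 CPM), Klrd1 (2.13 to 2.46 CPM) and Gzmb (0.318 to 0.615 CPM). Kupffer cell and macrophage markers summed to 743 to 843 and 775 to 918 CPM, with 1 of 10 called higher and 1 lower, and endothelial markers to 221 to 237 and 201 to 248 CPM with 0 of 4 called. The part of these cell types in the rise of the mitosis genes was not tested. Of 7 hepatocyte markers 3 rose and 3 fell. Apoa1, Ttr and Serpina1 rose 1.67-fold, 1.35-fold and 1.24-fold, Alb, Tat and Cyp2e1 were at 0.841, 0.660 and 0.728 times their control level, and the list summed to 96261 to 120918 CPM in controls and 92046 to 110208 CPM with NDEA. Cholangiocyte and liver progenitor markers summed to 211 to 345 and 195 to 238 CPM. Krt19 of this list was at 0 in every liver and marrow library, so its 0 gives no reading of cell content. Of the 4 tested there 1 was called, Cdh1, a cadherin of epithelial cells, at 0.646 times its control level. Cdh1 made up most of these sums, with means of 285 CPM in controls and 182 CPM with NDEA, so the sums describe the other markers little. The epithelial marker Epcam was at 4.69 to 12.1 CPM in controls and 13.8 to 26.4 CPM with NDEA (2.37-fold, limma adjusted p = 0.0731). The progenitor factor Sox9 was at 0 to 4.73 and 5.63 to 13.3 CPM (7.10-fold, limma adjusted p = 0.144), and neither gene overlapped between groups. Prom1, also tested, had a lower estimate, at 3.32 to 10.5 and 0.749 to 5.13 CPM with overlap (log2 fold change -1.27, limma adjusted p = 0.394).

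Other genes of the same process were read from lists. Of 58 further genes transcribed in G2 and M, 35 were tested in liver, and 33 of the 35 estimates were higher with NDEA. Of the 35, 4 rose and 0 fell, with a median log2 fold change of 2.55. Over all tested liver genes 2.87% were called higher and 3.74% lower. Here too a gene near 0 in control liver passed the filter only if it was high with NDEA. The counts therefore describe the genes measurable in liver and not all 58. The 4 were Kif20b, a kinesin of late mitosis (11.8-fold, limma adjusted p = 0.00166), Spc24, the partner of Spc25 (6.46-fold, limma adjusted p = 0.00225), Tacc3, a spindle microtubule stabiliser (3.57-fold, limma adjusted p = 0.00548), and Cks2, a Cdk1 subunit (2.84-fold, limma adjusted p = 0.0329). Their summed level was 100 to 147 CPM in controls and 366 to 415 CPM with NDEA. Mitotic machinery that cells express throughout the cycle, such as the core of the anaphase-promoting complex, cohesin and the gamma-tubulin ring, was level. Its 40 genes summed to 1052 to 1185 CPM in control liver and 1045 to 1215 CPM in NDEA liver. Of the 35 tested 1 rose, Tubgcp2 of the gamma-tubulin ring (4.53-fold, limma adjusted p = 0.0113), and 0 fell, and the median was -0.02. Of the promoters matched, TTTGAA stood in 41.5% for the further G2 and M genes and in 9.09% for the constitutive machinery, against 48.8% and 16.1% given above for the 41 genes and for all promoters.

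In marrow, 48 of the 49 genes were tested and 0 were called in either direction. This was the case for all 9239 tested marrow genes, 0% of which were called, so the count says nothing particular about mitosis genes. The smallest adjusted p of the list was 0.257 and that of all genes 0.247. At an unadjusted p under 0.05, 4 of the 48 were higher and 3 lower, and over all genes 5.84% were higher and 8.62% lower. The estimates were higher for 20 genes and lower for 28, with a median log2 fold change of -0.09 against -0.10 over all genes. NDEA and control libraries did not overlap for 5 of the 48, 2 higher and 3 lower, against 2.57% and 3.03% of all genes.

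Levels in marrow were high in every library for most of these genes. Mki67 stood at 202, 145, 136 and 142 CPM in controls 1 to 4 and at 133, 124, 131 and 112 CPM in NDEA 1 to 4 (log2 fold change -0.30, SE 0.22, limma adjusted p = 0.518). Control 1, the shallowest library, was far above the rest. Top2a was at 469, 360, 259 and 333 CPM in controls and at 230, 287, 262 and 292 CPM with NDEA (log2 fold change -0.37, limma adjusted p = 0.430). Plk1, Ube2c and Aurkb had estimates of 0.06, -0.14 and -0.34, and Ccnb1, Cdc20 and Bub1 of -0.35, -0.51 and -0.06, all within 2 SE of 0. The SE of a gene such as Ube2c was 0.21, and that of Cdc20 0.36. The 7 genes of chromosome structure had estimates from -0.68 to -0.08.

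The marrow estimates farthest from 0 included genes of low level. Hmmr had the largest positive estimate, at 4.61, 1.23, 3.38 and 0.179 CPM in controls and 5.10, 7.38, 1.66 and 7.71 CPM with NDEA (log2 fold change 2.01, SE 1.12, limma adjusted p = 0.403). Anln was at 6.71, 6.17, 16.7 and 7.15 CPM in controls and at 11.4, 22.3, 18.5 and 37.0 CPM with NDEA (1.32, SE 0.50, limma adjusted p = 0.268). Ttk was at 26.4, 32.1, 48.3 and 57.0 CPM in controls and at 59.6, 49.0, 80.8 and 99.4 CPM with NDEA (0.77, SE 0.31, limma adjusted p = 0.284). All 3 overlapped between groups. Ccna2, cyclin A2, did not overlap, at 155, 132, 167 and 138 CPM in controls and 185, 206, 219 and 279 CPM with NDEA (0.58, SE 0.22, limma adjusted p = 0.268).

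On the other side, Mastl was at 6.71, 3.53, 3.14 and 5.36 CPM in marrow controls and at 0, 3.02, 0 and 0 CPM with NDEA (log2 fold change -4.15, SE 1.49, limma adjusted p = 0.257). Melk was at 6.71, 8.81, 6.53 and 18.9 CPM in controls and at 13.9, 0.503, 13.7 and 0 CPM with NDEA (-2.69, SE 1.17, limma adjusted p = 0.305), high in NDEA 1 and 3 and near 0 in the others. Cdk1 was at 64.5, 46.5, 29.2 and 58.3 CPM in controls and at 26.7, 43.4, 29.5 and 0.989 CPM with NDEA (-1.74, SE 0.70, limma adjusted p = 0.284). Without NDEA 4, the library with the fewest genes detected, the Cdk1 estimate was -0.51 (limma adjusted p = 0.573). Without NDEA 3 and 4, a choice made after seeing the data, it was -0.44, the list's median was 0.00, and 0 genes were called. In marrow NDEA 4, 5 of the 49 genes had 0 counts, against 2 or fewer in each other marrow library.

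The effect of NDEA was larger in liver than in marrow for 30 of 48 genes by the treatment-by-tissue term of a fit over all 16 libraries, and smaller for 0 (62.5%, against 2.07% of all 11261 tested genes called larger and 0.213% smaller). The median difference was 3.59 on the log2 scale, against 0.32 over all genes. All 23 genes called in liver were among the 30. The other 7 were Aurkb, Cenpe, Ncapg, Ndc80, Spc25, Mastl and Melk, of which Mastl and Melk had failed the liver filter. The 3 largest differences were those of Mastl (9.31, SE 1.39, limma adjusted p = 0.00202), Melk (8.09, SE 1.87, limma adjusted p = 0.0210) and Cdk1 (6.10, SE 1.57, limma adjusted p = 0.0393). Mastl and Melk had 0 counts in control liver, so the size of their fitted difference depends on the prior count. Over the 41 tested genes with counts in control liver, 27 were called larger in liver and the median was 3.55. Melk was at 6.80 without marrow NDEA 4, 9.21 without liver NDEA 1, and 9.03 and 9.06 without marrow NDEA 1 and 3. Mastl was at 10.57 without marrow NDEA 2, the sole NDEA marrow with counts. Cdk1 was at 4.70 without liver control 4, 4.77 without marrow NDEA 4 and 6.81 without marrow NDEA 2. The number of genes called was 18 without liver control 1 and 12 without liver control 4. For Smc4 the difference was 1.69 (SE 0.26, limma adjusted p = 0.00202) and for Mki67 3.49 (SE 0.53, limma adjusted p = 0.00202). Ttk had the sole negative estimate, -0.32 (SE 1.36, limma adjusted p = 0.939).

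**Figure D4:**
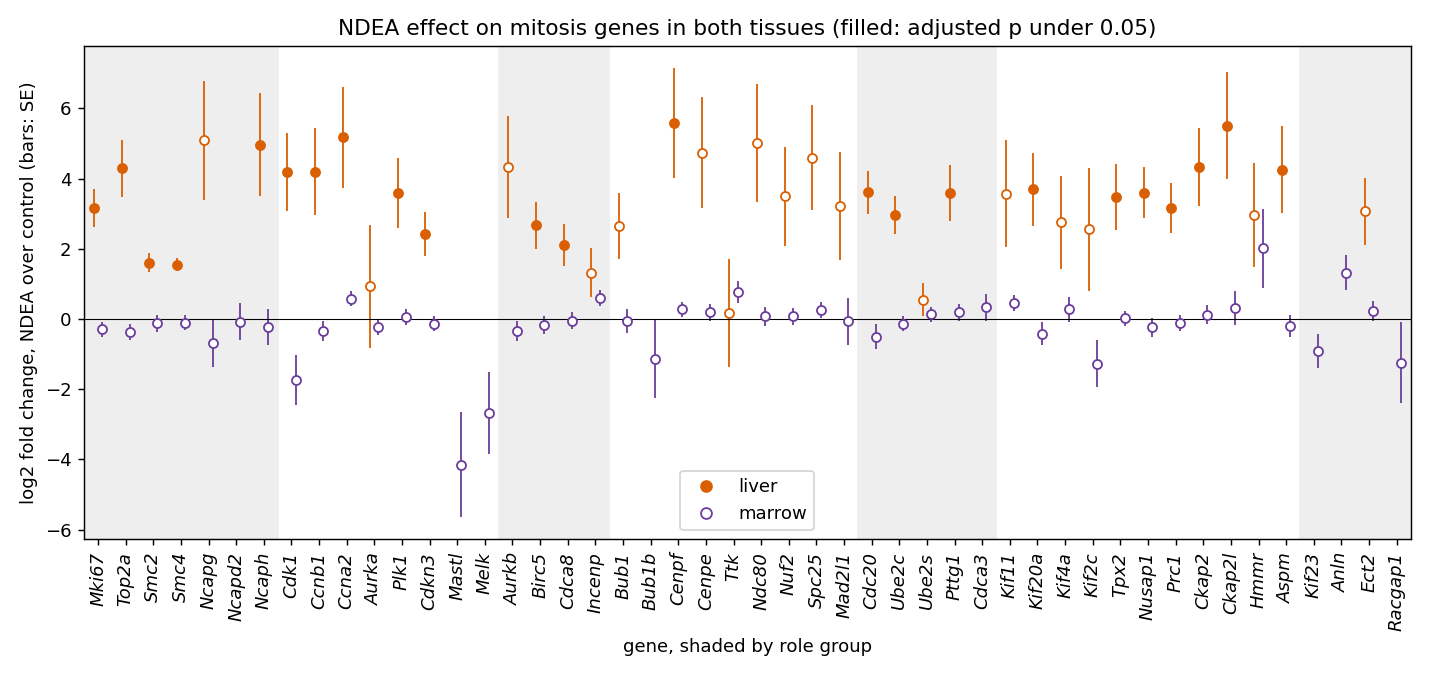
Log2 fold change of NDEA over control with its SE for the 40 genes tested in liver and the 48 tested in marrow, shaded by role group, with filled points at an adjusted p under 0.05. Every liver point lies above 0 and 23 are filled, while marrow points lie on both sides of 0 and none is filled.

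Control marrow and control liver were compared to place these levels. The 47 genes that passed the filter of this comparison were all called higher in control marrow, against 33.4% of all tested genes, and in all 47 the libraries did not overlap, against 29.0%. The log2 difference ran from 3.32 for Cdc20 (10.0-fold) to 9.53 for Ccna2 (741-fold), with a median of 5.49. Of the 47, 7 had 0 counts in all 4 control livers, so they passed the filter through marrow alone, where they are high, and their direction was fixed by it. Many others were near 0 in control liver. Genes below the CPM that the filter asks for in all 4 control livers also passed through marrow alone. Ccna2, Aurkb, Ndc80, Kif23, Ncapd2 and Ncaph were such genes, so the count of 47 was in part set by the filter. With the 7 genes at 0 counts at their bounds against the floor, the median was 5.46. Ccna2 had counts in 1 control liver, control 2, without which its fitted difference was 10.44. Hmmr, which failed this filter, stood at 0 to 4.43 CPM in control liver and 0.166 to 4.26 CPM in control marrow on the 16-library scale, with overlap. NDEA liver came part of the way up to control marrow. On the scale of all 16 libraries, the NDEA liver mean of a gene was a median of 20.9% of its own control marrow mean over the 48 genes with at least 10 counts there, and in 35 of the 48 every NDEA liver was below every control marrow library. In the other 13 the libraries overlapped.

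Genes differed widely in how close they came to marrow. Cdc20 stood at 110% of its control marrow mean, Ncapg at 116% and Hmmr at 252%, with overlapping libraries in all 3 and few counts for Hmmr and Ncapg. Cdk1 reached 67.2%, Ccnb1 63.3%, Ckap2 65.2% and Nusap1 53.2%. Mki67 and Top2a reached 27.4% and 23.8%. At the low end, Ccna2 reached 4.72%, Incenp 4.82%, Pttg1 5.42% and Plk1 7.58%. The cyclin partners of Cdk1 took different places, with Ccna2 at 6.51 ± 1.88 CPM in NDEA liver and 138 ± 15.8 CPM in control marrow, and Ccnb1 at 20.8 ± 8.02 and 32.9 ± 5.33 CPM (SD, n = 4 each, 16-library scale). Across the 48 genes the ranks of NDEA liver and control marrow means had a Spearman rho of 0.81, a description across genes that share libraries and depth.

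**Figure D5:**
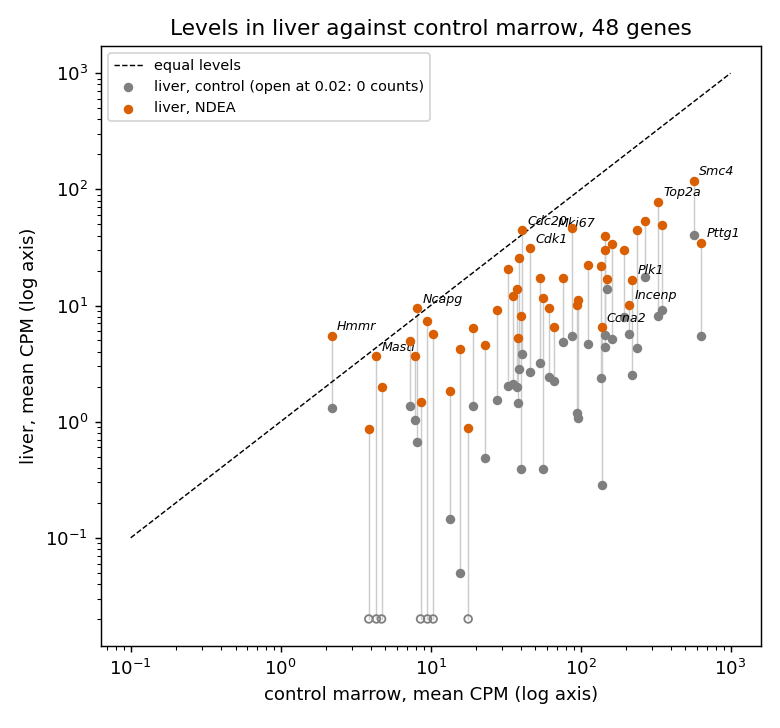
Mean CPM in control liver and NDEA liver against mean CPM in control marrow (both axes log, 16-library scale) for 48 genes, with a grey line joining both liver values of a gene and a dashed line at equal levels. NDEA liver lies above control liver for every gene shown, and Hmmr, Ncapg and Cdc20 alone lie above the dashed line.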

How the data were processed

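RNA of liver and bone marrow was measured in 16 libraries, 4 in each of 4 groups, made with a QuantSeq 3' kit per the labels' protocols. The authors deposited raw counts of reads per gene. Per the submitters' processing notes they used STAR and DESeq2, with no version given; a counter, build or annotation is not given in the sources used here. Of 32635 lines after the header, 15591 opened with a quotation mark and 12 records were broken over lines. After repair 32623 records of whole counts were read, and in 16313 records the deposited group totals matched the counts, with 0 mismatches. Read without repair, the broken records misplace text among the counts, so the unit was recorded as other, and limma's voom (limma 3.58.1, R 4.3.3) took the place of the planned quasi-likelihood count test. Python 3.11.15, pandas 2.3.3 and matplotlib 3.10.9 made the tables and plots.

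Each comparison was filtered, scaled and fitted alone. The filter asked for a CPM worth 10 counts (at median depth) in 4 or more libraries, and for 15 counts in total. Scaling used trimmed means of M values (trims 0.3 and 0.05) and a prior of 0.5 counts. Fold changes are fitted differences of log2 CPM, adjusted p-values come from limma with Benjamini-Hochberg adjustment over all tested genes, and p-values are two-sided. The tissue difference is the treatment-by-tissue term over 16 libraries. CPM are on scaled counts of the tested genes. Floors are 3 counts over a group. The fits were tested on simulated data with known changes.

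The genes, their role groups, the further gene lists and the marker lists were chosen with earlier results of these data known. Per-library values are given for every gene called in liver, for Mki67, Top2a, Cdk1, Ccnb1, Cdc20, Plk1, Aurkb, Bub1 and Ube2c, for the marrow genes with the 3 largest rises, falls and lowest p, and for the 3 largest tissue differences; other values were added after they were seen. Promoters came from a RefSeq table of assembly GRCr8 matched by symbol. Alternatives were other scalings, filters and limma methods, a replicate block, 1 fit of all libraries, the mitochondrial share as a covariate, and each library left out in turn.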

Additional observations from a re-analysis of the deposited data

Results flagged for a closer look

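Among 88 groups of 4 libraries checked for a library that stood apart from the other 3, 6 had one, and chance gives about 1 in 20. In liver controls these were Ccna2 at 1.05 CPM and Cdca8 at 10.3 CPM, both in control 2, and Ncaph at 0.180 CPM in control 3. In marrow controls they were Mki67 at 202 CPM in control 1 and Anln at 16.7 CPM in control 3. In marrow NDEA, Mastl stood at 3.02 CPM in NDEA 2 and at 0 in the other 3. The values for Ccna2, Ncaph and Mastl are those of genes with 0 counts in the rest of the group.

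The effect of NDEA differed between liver and marrow, by the treatment-by-tissue term, for 30 of the 48 genes, each with a larger effect in liver. On the log2 scale the difference (liver minus marrow) for chromosome genes was 3.49 for Mki67, 4.72 for Top2a, 1.74 for Smc2, 1.69 for Smc4, 5.87 for Ncapg and 5.26 for Ncaph. For mitotic entry it was 6.10 for Cdk1, 4.67 for Ccnb1, 4.62 for Ccna2, 3.63 for Plk1, 2.65 for Cdkn3, 9.31 for Mastl and 8.09 for Melk. For the passenger complex it was 4.76 for Aurkb, 2.89 for Birc5 and 2.21 for Cdca8, and for the kinetochore 5.42 for Cenpf, 4.64 for Cenpe, 4.97 for Ndc80 and 4.41 for Spc25. For anaphase it was 4.18 for Cdc20, 3.17 for Ube2c and 3.51 for Pttg1. For the spindle it was 4.21 for Kif20a, 3.55 for Tpx2, 3.93 for Nusap1, 3.37 for Prc1, 4.26 for Ckap2, 5.29 for Ckap2l and 4.51 for Aspm.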

How the results depend on the processing

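The number of genes called higher in liver was 23 with 40 tested. With other scalings, other filters, other limma methods, a replicate block or 1 fit of all 16 libraries it was 21 to 33. In these settings 2.54 to 4.03% of all tested genes were called higher. The tested sets differed, with 33 called of 48 without a filter, 32 of 48 in 1 fit and 22 of 27 at 5 CPM. The number was 2 with the mitochondrial share as a covariate and 9 to 19 with 1 library left out. The median log2 fold change in liver, 3.53, was 2.56 with the block. No gene was called lower in liver under any of these, and no call turned direction. In marrow 0 genes were called higher or lower under every setting but 1: in the fit of all 16 libraries 1 was called lower, Mastl (log2 fold change -4.20, limma adjusted p = 0.0455). The tissue difference was called for 30 genes, for 18 with limma-trend, and for 12 to 32 with 1 library left out, lowest without liver control 4. Control marrow was higher than control liver for 47 genes, and for 43 with the filter at 5 CPM and 34 to 47 with 1 library left out. Libraries with the same replicate number did not deviate together, with correlations of 0.0624 or less, and the labels do not say that a number marks a shared animal or cage. A replicate block left 21 genes called in liver, 0 in marrow, 26 for the tissue difference and 47 between control tissues, and in no comparison did every library correlate best with its own number. The quasi-likelihood count test and the other count test planned as alternatives were not run, for the unit of the table given above. Depth limits the genes at 0 or near it in control liver, whose folds are bounds or carry wide errors.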
